A study of Mus musculus with 2 samples.

Results

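The DOCK genes encode large guanine nucleotide exchange factors, and 9 of them were followed here in a mouse chondrocyte cell line: Dock1, Dock2, Dock3, Dock4, Dock5, Dock6, Dock8, Dock9 and Dock10. They were taken by symbol, through the RefSeq accession each probe carries, from the 20433 genes that had a name on the array. The list was drawn up from the same contrast that is described below, so the differences are a description and carry no test. The compared cells were 2 stable lines of ATDC5, a mouse line used as a model of cartilage cells, each made by lentiviral transduction. By its label the HES1 line overexpressed HES1, a repressor of transcription that Notch receptors switch on, and the GFP line overexpressed the fluorescent protein GFP as the control. Both were cultured as a monolayer for 3 days on 60 mm dishes, and total RNA of each line was read on 1 single-colour Agilent mouse array. Whether a line was 1 clone or a pool, and which promoter drove the transgene, is not given in the sources used here.

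A guanine nucleotide exchange factor turns on a small GTPase by letting it release GDP and take up GTP. DOCK proteins do this for Rac and Cdc42, which drive actin-based protrusion, migration, cell fusion and the engulfment of dead cells, through a catalytic DHR2 domain unrelated to the DH domain of the larger Dbl group. The DOCK-A group (Dock1, Dock2 and Dock5) and the DOCK-B group (Dock3 and Dock4) act mainly on Rac and bind ELMO adaptor proteins. The DOCK-C group (here Dock6 and Dock8) and the DOCK-D group (Dock9, Dock10 and Dock11) act on Cdc42 and, for some, on Rac, without ELMO.

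The arrays held 14 probes for the 9 members, with 1 spot each. A probe is called detected here where the scanner's own flag put it well above background, and dim where it did not. Of these probes, 6 were detected on both arrays, 2 on the GFP array alone and 6 on neither. A member was measured where 1 or more of its probes were detected on 1 or both arrays, which left 7 of 9. Dock9 and Dock10 were not measured. Signals are in scanner units after each array was scaled to the same 75th percentile of 1057.2, and they can be compared between lines for a probe but not between probes. Differences are log2 values, HES1 line minus GFP line. With 1 array per line there was no replicate and no p-value could be had. The errors given are the scanner software's own, which leave out the spread between cultures.

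By their signals, 4 of the 7 were at least 2-fold lower in the HES1 line (Dock2, Dock4, Dock5 and Dock8) and 0 were at least 2-fold higher, while 3 lay within 2-fold (Dock1, Dock3 and Dock6). Over all 14273 measured genes, 4.95% were at least 2-fold lower and 11.1% at least 2-fold higher, and the members were chosen from this contrast, so nothing is read from their share. Dock2 and Dock8 were detected on the GFP array alone, a pattern that favours a lower reading in the HES1 line. The bound used for such a gene cannot place it higher there. With Dock2 and Dock8 set to this bound, 3 members were at least 2-fold lower (Dock2, Dock4 and Dock5). By the same count 4.47% of all genes were lower and 9.49% higher. The bound raises a dim signal to the lowest detected signal of its array where it lies below that. It is not a strict limit, since some dim probes read higher, such as the second Elmo3 probe at 53.5 on the HES1 array. Below, a fold given as at least for a gene dim on 1 array is this bound. Of the 5 members measured on both arrays, 2 were at least 2-fold lower (Dock4 and Dock5), against 4.41% of genes lower and 7.04% higher among those seen on both. With the background of median spot signals corrected by normexp (offset 50) and the arrays quantile normalized, changes made together, 0 members were at least 2-fold lower. The share over all genes was not computed for that setting, and several other gene lists also lost calls under it. Nothing is therefore read from that count. In bulk RNA, fewer cells of a type and less RNA per cell cannot be told apart.

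**Figure D1:**
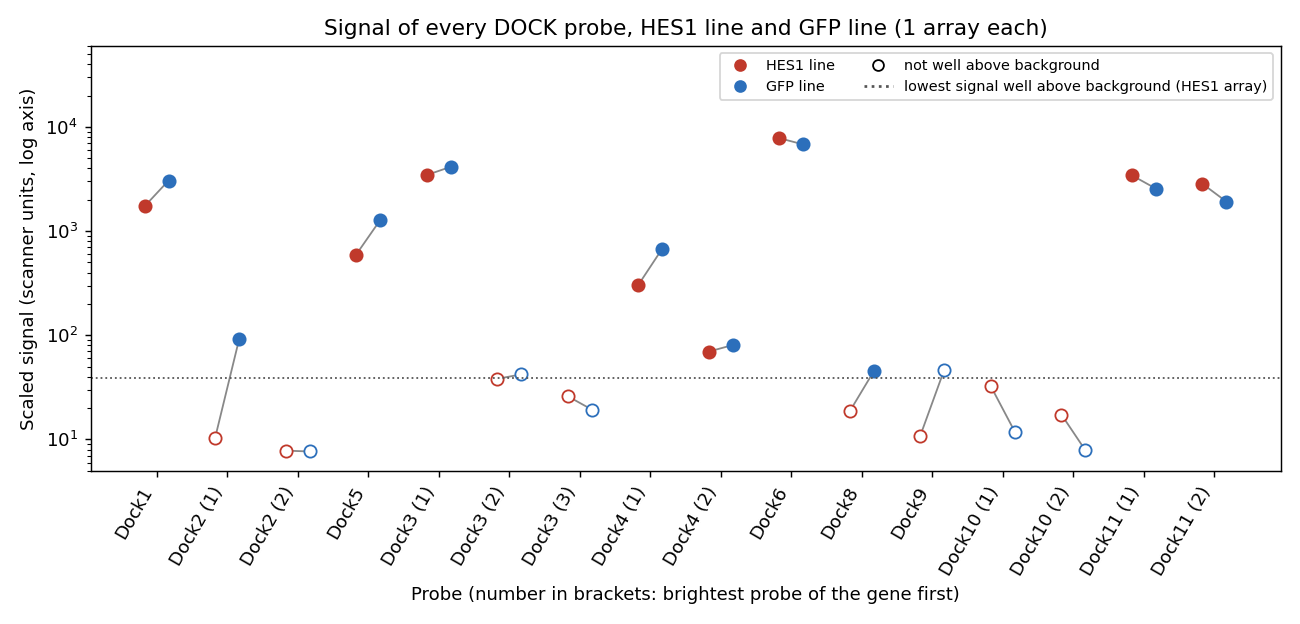
Scaled signal in scanner units (log axis) of each of 16 DOCK probes on the arrays, those of Dock11 included, with the HES1 line (red) left of the GFP line (blue) and a grey line joining the pair. Open circles were dim (not well above background), and the dotted line is the lowest signal that was well above background on the HES1 array, 39.0. The Dock1, Dock4 and Dock5 pairs slope up towards the GFP line, and those of Dock6 and Dock11 slope up towards the HES1 line.

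The sequences upstream of 3 members are shown as examples, since HES1 binds DNA. All 3 read lower in the HES1 line, Dock1 within 2-fold. Dock3 and Dock8 also read lower, and their windows are not printed. HES1 is known to recognise the N box, searched here as CACNAG, and the related class C site, searched as CACGCG, and the E box CACGTG was searched beside them. Each window is the 250 bases before the RefSeq start of the gene on build GRCm38.p6, written 5′ to 3′ on the strand of the gene, with matches on either strand in capitals. Dock1 lies on the plus strand at chr7:134670437-134670686, Dock2 on the minus strand at chr11:34783906-34784155 and Dock4 on the plus strand at chr12:40445803-40446052.
Dock1: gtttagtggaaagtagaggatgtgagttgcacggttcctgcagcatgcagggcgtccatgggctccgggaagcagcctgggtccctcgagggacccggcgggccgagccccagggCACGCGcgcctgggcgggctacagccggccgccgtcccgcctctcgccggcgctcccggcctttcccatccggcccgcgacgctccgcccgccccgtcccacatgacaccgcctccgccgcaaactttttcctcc
Dock2: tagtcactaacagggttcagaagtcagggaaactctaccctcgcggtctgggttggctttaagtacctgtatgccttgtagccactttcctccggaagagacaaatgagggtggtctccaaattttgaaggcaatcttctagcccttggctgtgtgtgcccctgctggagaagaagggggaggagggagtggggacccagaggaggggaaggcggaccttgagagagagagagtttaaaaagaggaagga
Dock4: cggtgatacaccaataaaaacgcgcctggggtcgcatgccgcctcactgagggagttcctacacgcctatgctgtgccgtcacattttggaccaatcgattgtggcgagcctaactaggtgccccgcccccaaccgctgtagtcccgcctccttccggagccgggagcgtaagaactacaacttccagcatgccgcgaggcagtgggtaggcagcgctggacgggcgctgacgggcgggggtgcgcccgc
The Dock1 window had 1 CACGCG, which began 135 bases before the start. The Dock2 and Dock4 windows held none of the 3 motifs. Among all 32851 upstream windows of that length in the RefSeq table, 7.62% held CACGCG, 6.02% held CACGTG and 36.7% held CACNAG, counting both strands. CACGTG reads the same on both strands, and no match overlapped another motif in the windows shown.

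Windows were found for 8 of the 9 members, and some genes had more than 1. Dock5 had no window, so it was not searched. Of the other measured members, Dock3 had 1 CACNAG, 51 bases before the start, and neither Dock6 nor Dock8 had a match. CACGCG was also found for Dock11, which read higher in the HES1 line, 227 bases before its start, and in both Dock10 windows and 1 Dock9 window. The Dock10 windows also held CACNAG, and another Dock9 window held CACGTG. The windows were rich in G and C for Dock1 (71.6%), Dock3 (68.8%), Dock6 (68.8%), Dock8 (77.6%) and Dock4 (64.0%), whereas that of Dock2 had 52.8%. A match is only a run of letters, and the arrays do not measure binding.

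The DOCK-A genes were all lower in the HES1 line by their brightest probe. Dock1, also called Dock180, works with ELMO to activate Rac in cell spreading, muscle cell fusion and engulfment. Its single probe read 1735 in the HES1 line, against 3062 in the GFP line. The log2 difference was -0.82 with a technical error of 0.20, a 1.77-fold lower signal that stayed within 2-fold. Dock5 is a Rac activator needed for bone resorption by mouse osteoclasts. It read 596 in the HES1 line, against 1276 in the GFP line, a difference of -1.10 ± 0.21 (technical error), or 2.14-fold lower. Both probes were far above their local background on both arrays: the raw spot medians of Dock5 were 415 over 51 in the HES1 line and 831 over 46.5 in the GFP line. The Dock5 difference sat close to the 2-fold line, and it was -0.99 when the arrays were scaled on the median of the probes seen on both, -0.96 after a loess fit and -0.95 with normexp and quantile normalization.

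Dock2, which activates Rac in migrating white blood cells, was near the limit of detection. Its brighter probe read 10.4 in the HES1 line, where it was dim, against 91.7 in the GFP line, where it was detected. By the bound the signal was 2.35-fold lower in the HES1 line, but with normexp and quantile normalization the log2 difference was -0.69, within 2-fold. The raw spot median was 89 in the HES1 line and 139.5 in the GFP line, while member probes that were detected on neither array ran from 77 to 110 on the HES1 array and from 80.5 to 112 on the GFP array. The second Dock2 probe was dim on both arrays, at 7.81 in the HES1 line and 7.67 in the GFP line, and so did not show the transcript. Dock2 in the GFP line thus rests on 1 spot of 1 probe.

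Of the DOCK-B genes, Dock4 was lower and Dock3 close to level. Dock4 activates Rac and takes part in Wnt signalling and in cell migration. Its brighter probe read 304 in the HES1 line, against 678 in the GFP line, a difference of -1.16 ± 0.21 (technical error), or 2.23-fold lower. Its second probe, also detected on both arrays, read 69.7 in the HES1 line and 80.6 in the GFP line, a difference of -0.21 ± 0.34. The probes thus differed by 0.95 in their log2 difference, with a combined technical error of 0.40, and the median over both placed Dock4 within 2-fold. With normexp and quantile normalization the brighter probe gave -0.94.

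Dock3, known as a modifier of cell adhesion and enriched in neurons, read 3457 in the HES1 line and 4144 in the GFP line by its brightest probe. Its difference of -0.26 ± 0.20 was close to its technical error. The other Dock3 probes, which carry the same accession, were dim on both arrays. One read 38.2 in the HES1 line and 42.1 in the GFP line, the other 26.0 in the HES1 line and 19.4 in the GFP line. So the 3 probes of Dock3 disagreed on whether the transcript was present, and only the brightest showed it.

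Of the DOCK-C and DOCK-D members, Dock6 was detected on both arrays, Dock8 on the GFP array alone, and Dock9 and Dock10 on neither. Dock6, an activator of both Rac and Cdc42 whose human counterpart is mutated in Adams-Oliver syndrome, had the brightest probe among the members. It read 7806 in the HES1 line and 6799 in the GFP line, a difference of 0.20 ± 0.20 that equalled its technical error. Dock8, a Cdc42 activator of lymphocytes and dendritic cells, read 18.7 in the HES1 line, where it was dim, against 45.2 in the GFP line, where it was detected. By the bound the signal was 1.16-fold lower in the HES1 line. Its raw spot median in the GFP line, 113, was 1 unit above that of the Dock9 probe there, which was not flagged as detected.

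Dock9 and Dock10, exchange factors for Cdc42 that are also named zizimin1 and zizimin3, give no fold. The Dock9 probe read 10.9 in the HES1 line and 46.9 in the GFP line, and was dim on both arrays. The 2 Dock10 probes read 32.3 and 17.4 in the HES1 line, against 11.8 and 7.87 in the GFP line, all dim. Technical errors of these 3 log2 differences ran from 1.09 to 1.60.

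Dock11 of the DOCK-D group, which is not a member of the list, was read beside it. This Cdc42 exchange factor, also named zizimin2, had 2 probes detected on both arrays. One read 3433 in the HES1 line, against 2559 in the GFP line, and the other 2850 in the HES1 line, against 1919 in the GFP line. These gave differences of 0.42 ± 0.20 and 0.57 ± 0.20, both within 2-fold. Both Dock11 probes were thus brighter in the HES1 line, unlike every probe of Dock1, Dock4 and Dock5.

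**Figure D2:**
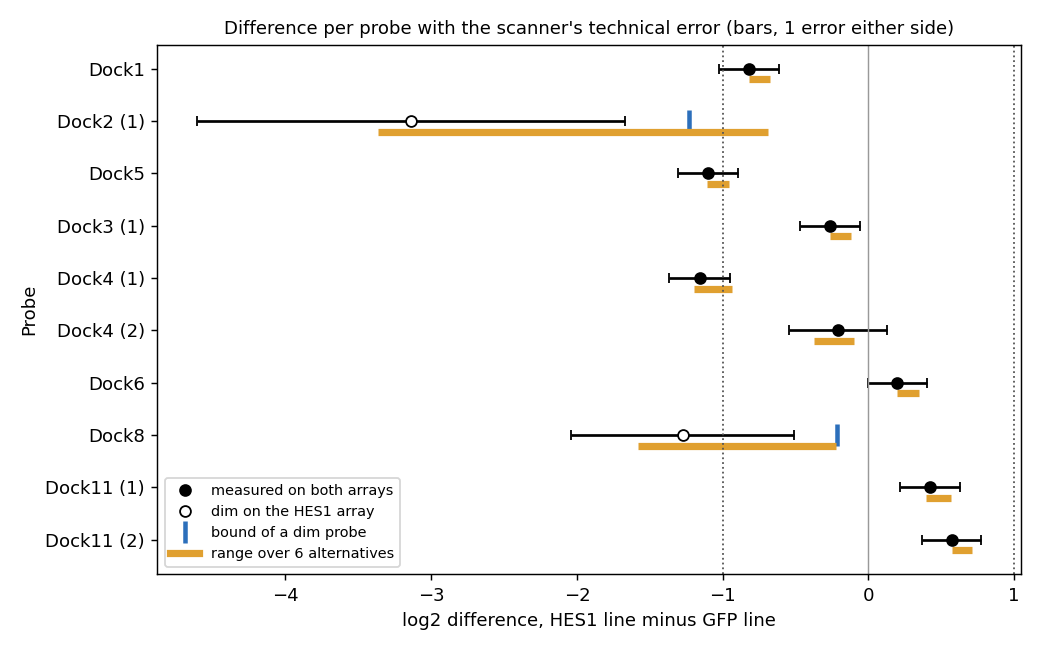
Log2 difference (HES1 line minus GFP line) of each DOCK probe detected on 1 or both arrays, with bars of 1 technical error either side from the scanner software. Open circles were dim on the HES1 array and their blue ticks mark the bound, orange bars give the range over 6 other normalizations or value sources, and dotted lines mark 2-fold. Dock4 (-1.16) and Dock5 (-1.10) lie just past the 2-fold line and Dock6 (0.20) near 0.

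Ranked by log2 difference among the 14273 measured genes, Dock4 was the 457th from the lowest and Dock5 the 547th, so that 3.19% and 3.83% of genes had a lower value. For Dock1 this share was 7.95%, for Dock3 33.6% and for Dock6 68.7%. Over all probes detected on both arrays the median difference was -0.11 under this scaling, and scaling on that median moves every value up by as much. Relative to it, Dock4 stays past 2-fold by its brighter probe and Dock5 does not.

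ELMO proteins bind DOCK-A and DOCK-B proteins and release them from an inactive state, and their genes were listed with other adaptors. Of 15 measured genes of that list, 2 were at least 2-fold higher in the HES1 line and 0 lower. The median of the 15 was -0.18, against -0.06 over all measured genes. With normexp and quantile normalization the count of higher genes was 1. Elmo3 read 1291 in the HES1 line, against 620 in the GFP line, a difference of 1.06 ± 0.21, while its second probe was dim on both. Elmo1 was detected on the GFP array alone. It read 43.8 in the HES1 line, where it was dim, against 69.1 in the GFP line. This was 1.58-fold lower, a difference of -0.66 ± 0.45. Elmo2 is not analysed here. The other gene past 2-fold was Elmod2, which shares the ELMO domain but acts on ARF GTPases (3210 in the HES1 line, 1540 in the GFP line). The adaptors Crk and Crkl, which link the DOCK1 complex to focal adhesions, had differences of -0.29 and -0.18 by their brightest probes. Of the other 2 Crk probes, 1 gave -0.23 and 1 gave 0.20.

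The GTPases on which DOCK proteins act were within 2-fold. Rac1 read 38392 in the HES1 line and 48649 in the GFP line, a difference of -0.34 ± 0.20, and its second probe gave -0.46. Cdc42 had a difference of -0.29 by both of its probes, Rac3 of -0.06 and Rhog, which recruits ELMO to membranes, of -0.07. Rac2, the Rac of blood cells, was dim on both arrays. The 22 measured GTPases of the Rac and Cdc42 family and their relatives held 2 genes past 2-fold upwards and 1 downwards, with a median of -0.07. Rnd1, an atypical member, read 21371 in the HES1 line, against 4428 in the GFP line, and was 4.83-fold higher, with 4.49-fold by its second probe. Rhov was at least 2.21-fold higher, and Rhou, an atypical relative of Cdc42, was 2.66-fold lower at 1373 in the HES1 line, against 3650 in the GFP line.

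Dbl-type genes are the other large group of exchange factors, though not every gene listed here acts mainly on Rac or Cdc42. Of 35 measured, 1 was higher and 2 were lower (1 lower by bounds), with a median of -0.05. Vav3 was 2.36-fold higher at 112 in the HES1 line, against 47.7 in the GFP line. Plekhg4 was 2.28-fold lower at 11083 in the HES1 line, against 25264 in the GFP line, and Fgd5, dim in the HES1 line, was at least 1.45-fold lower. Of 19 GTPase-activating proteins and dissociation inhibitors, which turn these GTPases off or hold them in the cytosol, 2 were higher and 3 lower (median -0.12). Arhgap22, a Rac inactivator, was 5.38-fold higher at 3936 in the HES1 line, against 731 in the GFP line, and Arhgap25 at least 2.01-fold higher. Chn2, which encodes beta-chimaerin, was 2.99-fold lower by its brightest probe and 2.92-fold by the other. Racgap1, which acts in cytokinesis, and Arhgap33 were each 2.25-fold lower.

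Effectors downstream of Rac and Cdc42 had a median of -0.30 over 40 measured genes, with 1 higher (0 by bounds) and 2 lower. The lower genes were Iqgap3, a scaffold of dividing cells, 3.18-fold lower at 1052 in the HES1 line, against 3348 in the GFP line, and Cyfip2, a subunit of the WAVE complex that Rac activates, 2.67-fold lower at 52.9 in the HES1 line, against 141 in the GFP line. Iqgap2 was dim in the GFP line and at least 1.67-fold higher in the HES1 line. All lists were picked with earlier results of these data known, and their counts describe these 2 arrays only.

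**Figure D3:**
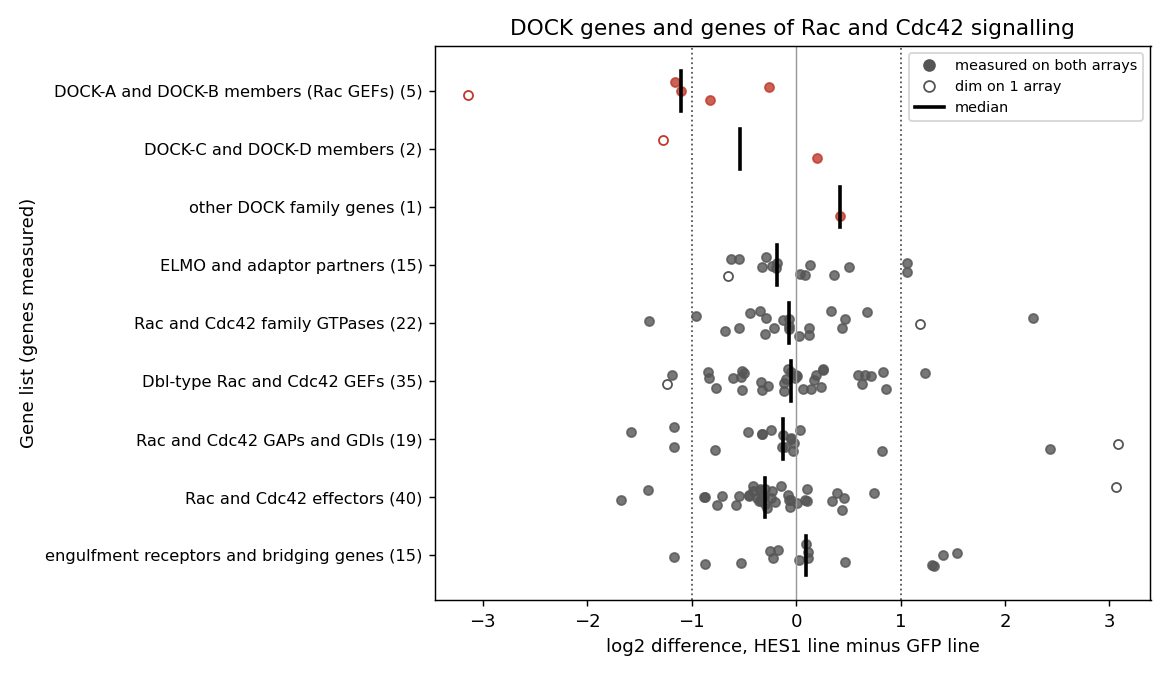
Log2 difference (HES1 line minus GFP line) of each measured gene, by its brightest probe, in DOCK genes (red) and lists of their partners, GTPases and effectors (grey), with the number of genes measured in brackets. Open circles were dim on 1 array, black ticks are medians and dotted lines mark 2-fold. The median is -1.10 for the 5 DOCK-A and DOCK-B members, a value that the choice of members shaped, and lies between -0.30 and 0.10 for the 6 lists of other genes.

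Some facts of the arrays as a whole touch these values. The mouse Hes1 probe was dim on both arrays (10.3 in the HES1 line, 10.2 in the GFP line), so it checked neither label. The share of spots well above background was 56.6% on the HES1 array and 54.6% on the GFP array. Interferon-stimulated genes were higher in the HES1 line, all 30 that were measured by 2-fold or more, with a median of 6.48. Of 18 chondrocyte markers, 13 were measured (median -0.29, 1 higher, 2 lower), with Sox9 and Col2a1 detected on both arrays. Matn1, Matn3, Hapln1, Cnmd and Snorc were dim on both.

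Since Dock2 and Dock8 are best known from blood cells, markers of those cells are set beside them. Of 19 such markers with a probe kept, 12 were measured (median 0.47). Of these, 4 (3 by bounds) were at least 2-fold higher and 2 lower. Over all measured genes 11.1% were higher and 4.95% lower. The higher ones included Coro1a (6.44-fold, detected on both arrays), Cd52 (at least 4.01-fold) and Lcp1 (2.10-fold, dim in the GFP line). The signals summed to 28079 in the HES1 line and 51984 in the GFP line, but such a sum follows its brightest probe, here 1 of Itgam (22759 in the HES1 line, 47669 in the GFP line). The other 2 Itgam probes, detected on both arrays, had log2 differences of 0.47 and 0.25. Ptprc, the common leukocyte antigen, read 47.8 in the HES1 line and 25.2 in the GFP line, where it was dim. Csf1r, Cd14, Itgb2, Fcer1g and Cd3e were detected on both arrays and lay within 2-fold by their brightest probes. Csf1r read 2030 in the HES1 line and 1978 in the GFP line. Tyrobp, Laptm5, Lyz2, Aif1, Cd53, Spi1 and Adgre1 were dim on both arrays. Ikzf1, a lymphoid transcription factor, was seen like Dock2 on the GFP array alone, at 10.3 in the HES1 line, against 137 in the GFP line, and its second probe was dim on both. The part of other cells in the Dock2 and Dock8 signals was not tested.

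Neuronal markers, set beside Dock3, were measured for 10 of 13 genes, with 3 higher (1 by bounds) and 1 lower (median 0.36) and summed signals of 24288 in the HES1 line and 41477 in the GFP line, most of it from Snap25, which was the lower gene. Stmn2, Nefl and Dcx were dim on both arrays. Endothelial markers, set beside Dock4 and Dock9, were measured for 6 of 11 genes, with 2 higher (1 by bounds) and 0 lower (median 0.25) and summed signals of 10733 in the HES1 line and 9505 in the GFP line. Most of that sum came from 1 Kdr probe (8691 in the HES1 line, 8354 in the GFP line), while the other Kdr probe was dim in the GFP line and at least 12.6-fold higher in the HES1 line. Cdh5, Tek, Erg, Emcn and Cldn5 were dim on both arrays. The part of such cells in the DOCK differences was not tested.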

How the data were processed

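Total RNA from 1 HES1 line and 1 GFP line of ATDC5 cells was measured on 1 array each. Labelling with Cy3 started from 0.1 µg of RNA, per the labels' protocols. Per the file headers, each scanner file gives the intensity of every spot, background-corrected and detrended by Agilent Feature Extraction 10.10.1.1, with no scaling between arrays and with flags such as well above background or outlier. The array design uses mm9, also per its header. The deposited table repeats that intensity times 1 factor per array, 1.53 for HES1 and 1.45 for GFP. It is linear and uncentred, with a median of 76.6 for HES1 and 67.7 for GFP and a 75th percentile of 1057.2 in both columns.

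The processed signal was divided by its array's 75th percentile over 59305 non-control spots and taken to log2. Spots with an outlier flag on either array (1053) were left out, no spot was saturated, and spots of a probe were averaged (54948 probes). Accessions were matched to RefSeq symbols of GRCm38.p6, which named 26869 probes. A gene took its brightest detected probe. Promoter sequences are RefSeq's, on GRCm38.p6.

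A bound sets the bright signal against the higher of the dim probe's own signal and the detection floor of that array (39.0 for HES1, 38.1 for GFP), the lowest detected signal. Some dim probes read above that floor, so a bound is not a strict limit. The threshold was 2-fold, and no test was run with 1 array per group. Technical error is the scanner's error estimate carried to the log2 difference, with a median of 0.20 over genes. It lay close to that median for nearly all bright probes, so it tells little of any single bright probe. Calculations used Python 3.11.15, pandas 2.3.3, R 4.3.3 and limma 3.58.1, and the differences were checked on simulated data. The planted changes were larger than those of Dock4 and Dock5 and left out probes as faint as those of Dock2 and Dock8. So the check does not cover calls near 2-fold or near the detection limit. Precision is limited by the number of arrays. Alternatives were other normalizations, the deposited values, outlier spots kept, no filter or a stricter one on dim probes, medians over probes, bounds, and thresholds of 1.5-fold and 3-fold.

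The members and lists were chosen with earlier results of these data known. Named genes are all probes of the members and of Dock11, Hes1, a fixed set (Rac1, Rac2, Rac3, Cdc42, Rhog, Elmo1, Elmo2, Elmo3, Crk and Crkl) and, from each list, up to 4 genes past 2-fold or else the one with the biggest difference. Some of these are not reported here. Single marker genes, Iqgap2, Fgd5, Tyro3 and Arhgap25 were named after their values were seen.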

Additional observations from a re-analysis of the deposited data

How the results depend on the processing

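The count of 4 members at least 2-fold lower was 0 under a normexp correction (offset 50) of median spot signals with quantile normalization. It was 2 among genes detected on both arrays and 1 at a 3-fold threshold. Under the other 9 alternatives it ran from 3 to 5, and it was 3 when arrays were scaled on the median of jointly detected probes, under loess and with the median over probes. The count of 0 members higher was 1 without a filter on dim probes, the added gene being Dock10, and 0 under the other 11 alternatives. With normexp and quantile normalization Dock2 stood at -0.69 and Dock8 at -0.22, beside bounds of -1.23 and -0.21. That setting changed the input signal, the background correction and the normalization together, and the cause was not tested. The share of all genes past 2-fold was not computed for it. None of the 10 DOCK probes seen on at least 1 array changed sign under the 6 other normalizations and value sources. Of these 6, the deposited values repeat the same signal at the same percentile, and keeping outlier spots left these probes unchanged. Neither could therefore change a sign, and both settings also count among the 9 alternatives above. Of 264 counts over the 11 other lists under alternatives, 60 moved by more than 1.5 times. Signal over background limits Dock2, Dock8, Dock9 and Dock10, which lie near the detection limit. No paired analysis was possible because each group had 1 array.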

Other observations

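Engulfment of dead cells is a process in which the DOCK1 and ELMO complex is known to act, and its receptors and bridging genes were the list with the largest share of genes past 2-fold among the 6 lists of partners and effectors. Of 15 measured, 4 were at least 2-fold higher in the HES1 line and 1 lower, with a median of 0.10, against 11.1% higher and 4.95% lower over all measured genes. The count of higher genes was 2 with normexp and quantile normalization and 0 at a 3-fold threshold. The list was singled out after the 6 were compared. Mertk, a receptor tyrosine kinase that binds bridged phosphatidylserine, read 428 in the HES1 line, against 147 in the GFP line, and was 2.91-fold higher. Its relative Axl was 2.46-fold higher at 30583 in the HES1 line, against 12416 in the GFP line, while Tyro3, the third receptor of that family, was 2.25-fold lower at 6570 in the HES1 line, against 14804 in the GFP line. The second Tyro3 probe gave a log2 difference of -0.92. The scavenger receptors Megf10 and Stab2 were 2.66-fold and 2.49-fold higher. These values have no replicate check.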
